A study of Mus musculus with 45 samples.

Results

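The Obox (oocyte-specific homeobox) family was followed through 4 RNA-seq experiments in mouse embryonic stem cells (mESCs). Its members were every entry of the gene tables whose symbol starts with Obox, which gave 55 of 55401 genes. They comprised 7 protein-coding genes (Obox1, Obox2, Obox3, Obox5, Obox6, Obox7 and Obox8) and 48 entries with -ps in the symbol. Of the latter, 39 were Obox4-ps entries, 8 were Obox3-ps entries and 1 was Obox6-ps1.

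The study asked what the histone methyltransferase EHMT2 represses in mESCs, and whether the loss of this repression needs Dppa4. The 45 libraries formed 15 groups of 3. In the time course, EHMT2-dTAG-mcherry mESCs of mixed BL6/129 strain received the degrader dTAG-13 or DMSO for 24 h or 7 d. In the washout experiment the same line received DMSO for 15 d, dTAG-13 for 15 d, or dTAG-13 for 7 d followed by 8 d without it (Recovery). All groups of these experiments, the DMSO controls included, carry the degron tag on EHMT2, and the 3 libraries of a group came from 3 clones (E2-17, E2-20 and E2-K71). The sorted experiment used an EHMT2-dTAG-mcherry-mervl-gfp line, in which MERVL drives GFP. After 72 h of DMSO or dTAG-13 its cells were sorted by GFP, and the negative fraction is called mESC and the positive fraction 2CLC (2-cell-like cells). In the Dppa4 experiment, 3 clones each of wild-type WTJ1 mESCs and of DPPA4KO mESCs, made with CRISPR/Cas9, were kept for 48 h in DMSO or in UNC0638, which blocks the enzymes EHMT1 and EHMT2. Cells grew in serum and LIF, and fibroblast feeder transcripts were present in the libraries.

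Obox genes encode homeodomain transcription factors of the PRD class that arose in rodents from duplications of the neighbouring photoreceptor gene Crx. Their transcripts are known from oocytes and from the early mouse embryo, where OBOX proteins bind promoters and repeats that are switched on at zygotic genome activation. 2CLCs arise rarely in mESC cultures and transiently express genes and MERVL retroviruses of the 2-cell embryo.

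In the GENCODE annotation of GRCm38, 53 of the 55 members lay in one cluster on chromosome 7 between 14331436 and 15839678, a span of 1.51 Mb. The other two were the processed pseudogenes Obox3-ps8 (chromosome 17, 36452294 to 36453253) and Obox6-ps1 (chromosome 17, 61360573 to 61361614). Within the cluster, Obox4-ps12 to Obox4-ps23 formed a tandem array of 12 copies placed every 11079 to 11369 bases. Obox4-ps27, Obox4-ps28 and Obox4-ps29 followed as a second run of 3 copies, placed every 11325 to 11336 bases. The 15 array copies were 99.2% to 99.6% identical to Obox4-ps27 in their exons, with 4 to 9 differing bases among the 14 copies set against it. In the reading frame of Obox4-ps27, 14 of the 15 had neither an inner stop codon nor a frame shift, although all 15 are annotated as unprocessed pseudogenes. Obox4-ps12, Obox4-ps27 and Obox4-ps28 were the only -ps entries annotated at the full 1362 bases, an open frame of 453 codons, and differed from each other at 4 or 5 bases.

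The 6 coding genes compared here were more distant from Obox4-ps27 than the array copies were, and Obox2 was not compared. The stretch of 63 bases around the DNA-recognition helix of the homeodomain is shown to place the coding genes beside the array, read from the GENCODE transcripts 5′ to 3′, with capitals marking bases that differ from Obox4-ps27.
Obox4-ps27: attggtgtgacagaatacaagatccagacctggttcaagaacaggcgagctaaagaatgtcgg
Obox4-ps28: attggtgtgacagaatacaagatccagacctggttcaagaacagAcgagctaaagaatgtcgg
Obox4-ps12: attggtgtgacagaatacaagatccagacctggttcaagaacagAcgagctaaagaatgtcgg
Obox8: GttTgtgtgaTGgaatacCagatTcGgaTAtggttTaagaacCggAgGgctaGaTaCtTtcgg
Obox6: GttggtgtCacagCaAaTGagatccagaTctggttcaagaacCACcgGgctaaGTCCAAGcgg
Obox5: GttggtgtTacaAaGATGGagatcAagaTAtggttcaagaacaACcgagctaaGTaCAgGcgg
Obox3: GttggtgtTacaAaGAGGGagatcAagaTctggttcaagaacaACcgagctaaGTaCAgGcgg
Obox1: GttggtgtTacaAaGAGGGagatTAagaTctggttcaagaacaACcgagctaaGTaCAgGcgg
Obox7: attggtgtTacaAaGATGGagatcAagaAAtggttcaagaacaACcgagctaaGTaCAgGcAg
Obox4-ps28 and Obox4-ps12 differed from Obox4-ps27 at 1 base of this stretch, while the 6 coding genes shown differed at 17 or 18 bases. Obox1, Obox3, Obox5 and Obox7 looked alike in the capitals, and Obox8 and Obox6 each had their own set.

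The promoters of 5 of the 7 coding genes were found in the RefSeq table (GRCm38.p6), which gives 300 bases around each annotated start of transcription. Obox6 and Obox8 had no entry in it. Those of Obox3 (chr7:15639728-15640027, minus strand) and Obox5 (chr7:15750120-15750419, plus strand) are shown because both hold the blocks common to this branch of the family, in capitals, while their transcripts differed in the response to dTAG-13 described further on.
Obox3: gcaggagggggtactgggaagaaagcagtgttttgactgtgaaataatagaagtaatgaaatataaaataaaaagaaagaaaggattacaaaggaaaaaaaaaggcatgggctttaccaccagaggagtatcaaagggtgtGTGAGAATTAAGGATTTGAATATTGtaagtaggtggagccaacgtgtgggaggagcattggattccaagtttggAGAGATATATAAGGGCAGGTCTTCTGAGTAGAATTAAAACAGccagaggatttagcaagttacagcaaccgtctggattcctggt
Obox5: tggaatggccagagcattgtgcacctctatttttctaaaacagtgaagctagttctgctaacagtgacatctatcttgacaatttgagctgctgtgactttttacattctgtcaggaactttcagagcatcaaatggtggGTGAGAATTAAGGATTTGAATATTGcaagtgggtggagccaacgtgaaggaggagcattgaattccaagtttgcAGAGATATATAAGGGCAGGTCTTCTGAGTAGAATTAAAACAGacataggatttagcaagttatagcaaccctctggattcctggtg
The first block, GTGAGAATTAAGGATTTGAATATTG, was present in the promoters of Obox1, Obox2, Obox3, Obox5 and Obox7 and in no other of the 32851 promoters (0.0152% of all). The second, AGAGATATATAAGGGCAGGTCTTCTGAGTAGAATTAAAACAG, was present in Obox1, Obox3, Obox5 and Obox7 only (0.0122% of all). It contains the TATA box letters TATATAA, which 3.24% of all promoters held on either strand. In Obox2 the first block lay at the annotated start itself, so that the window ended before the place where the second would lie. The letters GGATTA, a motif of OTX and CRX factors, were in the Obox3 window and in 7.06% of all promoters, searched on both strands.

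Near-identical copies limit what can be said of single members. Each read with several equally good places was put at 1 of them at random by the authors' aligner, and spliced reads were not aligned. Windows of 100 bases found in no other member made up 0% to 26.9% of the exons of the 15 array copies. They made up 100% in Obox6 and Obox8, 97.7% in Obox5, 96.6% in Obox7 and 90.5% in Obox3. Obox1 and Obox2 shared exons and had 58.6% and 54.9%. The array was therefore described by its sum, and single array copies are uncertain.

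For the time course, the washout and the sorted cells, the values are the authors' means over the 3 libraries of a group, in counts divided by size factors (normalized counts), which carry no error and allow no test. The smallest value above 0 in a group lay between 0.228 and 0.313 normalized counts, the scale of 1 read in 1 of the 3 libraries. A member was counted as higher when log2 of the ratio of the group means, each plus 1, was at least 1, among members whose average over the groups of the experiment was at least 5. Many -ps members reached this average only through the dTAG-13 groups or, among sorted cells, the 2CLC groups, and so had to be higher there. Their counts and medians in comparisons with those groups are therefore a description and no support, and are given with the share of all genes only as background. Markers of the labelled cells were present. The 6 markers of 2-cell-like cells summed to between 105.9 and 427 normalized counts in unsorted or GFP-negative DMSO groups and to 79711 in GFP-positive DMSO cells. The 7 pluripotency markers summed to between 32689 and 80967 in all of these groups. The Ehmt2 transcript itself, whose protein is the degrader's target, had a mean of 616 normalized counts with DMSO and 609 with dTAG-13 at 24 h.

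After 24 h of dTAG-13, the sum of the 48 -ps entries was 964 normalized counts, against 81.9 with DMSO, an 11.8-fold difference. Of the 55 members, 21 were above the level limit, and 20 of them were at least 2-fold higher with dTAG-13. Of the 19832 genes above the limit, 4.13% were. Most of the 20 passed the limit only through the dTAG-13 groups, as the array copies had a median of 4.13 with DMSO. The median log2 difference of the 21 was 3.31, against 0.01 over all genes. All 15 array copies were among the 20. Obox4-ps27 (chromosome 7, 15431662 to 15433600), the highest of them, had a mean of 8.32 with DMSO and 79.9 with dTAG-13. Obox4-ps28 (chromosome 7, 15442998 to 15444936) had 7.47 and 70.5, and Obox4-ps12 (chromosome 7, 15139546 to 15141484) had 7.80 and 57.2. In these unsorted cultures, more cells of a type and more RNA per cell cannot be told apart.

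The array gave most of the -ps signal. Its 15 copies gave 81.1% to 94.1% of the -ps sum in all 11 groups, and Obox4-ps27 and Obox4-ps28 together gave 15.3% to 22.1%. Per kilobase of exon, Obox4-ps27 had 58.7 normalized counts with dTAG-13 at 24 h, against 14.4 for Obox6 and 0.871 for Obox3. At the other end, 9 Obox4-ps entries were listed at 0 in all 11 group means (Obox4-ps4, -ps5, -ps7, -ps10, -ps24, -ps25, -ps32, -ps34 and -ps39), and these had 64.2% to 72.9% identity to Obox4-ps27. Identity in this range did not set them apart, as Obox4-ps35, with 71.6%, had 79.3 normalized counts in 2CLC with DMSO.

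**Figure D1:**
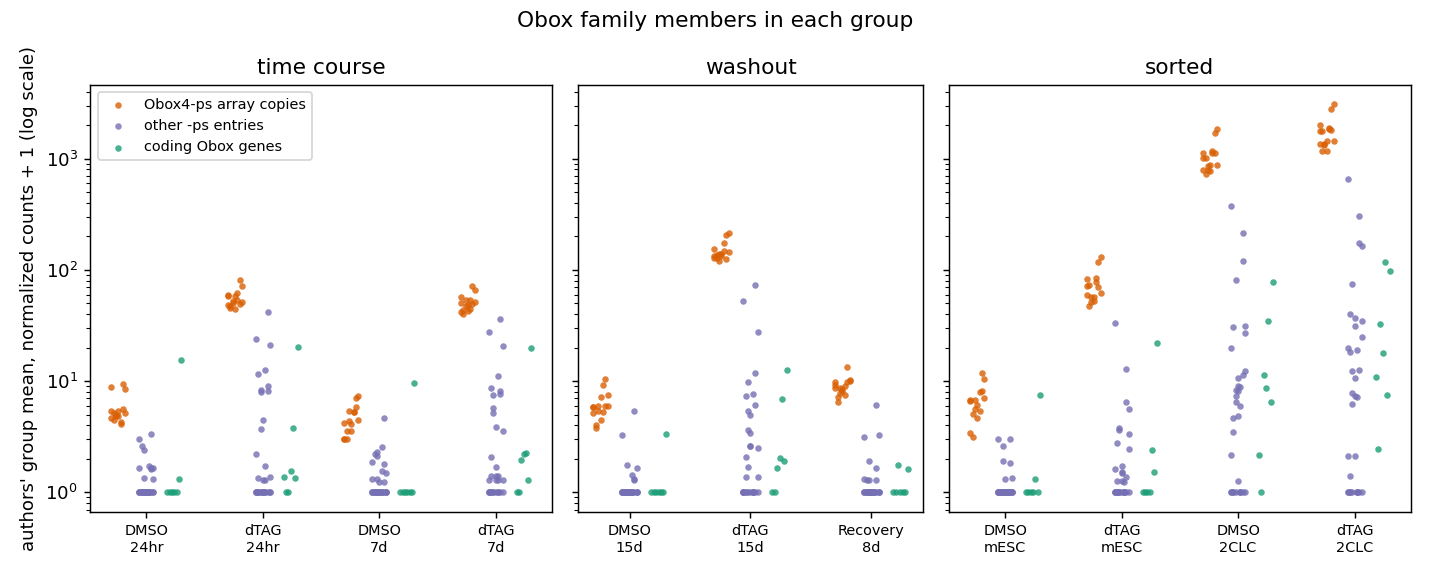
Authors' group means of the 55 members in the time course, washout and sorted experiments, on a log axis of normalized counts plus 1. Each point is 1 member, coloured as an Obox4-ps array copy, another -ps entry or a coding gene; the array copies form the top of every dTAG and 2CLC group, and the single coding gene well above 1 in the unsorted and mESC DMSO groups is Obox6.

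Of the coding genes, only Obox6 (chromosome 7, 15833241 to 15839678, minus strand) was above the level limit in the time course. It was already present with DMSO, at 14.6 normalized counts at 24 h and 8.69 at 7 d, and had 19.3 and 18.9 with dTAG-13. Its log2 difference was 0.38 at 24 h and 1.04 at 7 d, so that it passed the 2-fold limit only at 7 d, where the DMSO mean was lower. The other 6 coding genes had means of 0 to 0.313 with DMSO and of 0 to 2.78 with dTAG-13 at both times. The highest of these values was that of Obox3 at 24 h with dTAG-13, 2.78 against a value listed at 0 with DMSO.

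After 7 d of dTAG-13 the -ps sum was 886 against 67.1 with DMSO, a 13.2-fold difference, and 21 of 21 members above the limit were at least 2-fold higher (5.01% of all genes), 20 of them the -ps entries that had passed the same limit. Between the dTAG-13 groups of 24 h and 7 d, the -ps sum did not go up, with a ratio of 0.920. Of the 15 array copies, 12 had a lower mean at 7 d than at 24 h, with ratios of 0.706 to 1.05. In the same groups the MERVL-int repeat, the internal part of the MERVL retrovirus, went from 28792 to 80321 (2.79-fold), and Zscan4d, a 2-cell gene of another cluster on chromosome 7, from 464 to 1407 (3.03-fold). These are differences between means without an error. With DMSO alone, 0 of the 21 members were at least 2-fold higher at 7 d than at 24 h (1.18% of all genes) and 1 was at least 2-fold lower (1.61%), Obox4-ps12, at 7.80 and 2.02.

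Among the named copies with the lowest means at 7 d, Obox4-ps36 (chromosome 7, 14767725 to 14768447) had 0.483 with DMSO and 19.6 with dTAG-13. Obox4-ps30 (chromosome 7, 15501822 to 15502769) had 1.54 and 10.2, and Obox4-ps8 (chromosome 7, 15007074 to 15007787) had 1.21 and 7.62. Of the chromosome 17 entries, Obox3-ps8 was listed at 0 with DMSO and had 0.402 with dTAG-13 at 7 d, and Obox6-ps1 had 0.550 and 0.285.

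In the washout experiment the -ps sum was 86.5 normalized counts after 15 d of DMSO, 2417 after 15 d of dTAG-13, and 132 in Recovery. The dTAG-13 sum was 27.9-fold that of DMSO, and 18 of 18 members above the limit were at least 2-fold higher (5.17% of all genes), with log2 differences of 3.75 to 5.16. In Recovery against dTAG-13, 18 of 18 were at least 2-fold lower (6.63%), with a median log2 difference of -4.02. Many of the 18 passed the limit only through the dTAG-13 group, where the array copies had a median of 136.9, against 4.89 with DMSO and 7.62 in Recovery, so both counts follow in large part from the limit. The Recovery sum was 1.53-fold that of DMSO, and 0 of 18 members were at least 2-fold higher in Recovery (1.98%), with log2 differences between -0.30 and 1.00. The median log2 difference of the 18 was 0.64, against -0.01 over all genes. Obox4-ps27 had means of 9.43 with DMSO, 206.6 with dTAG-13 and 12.5 in Recovery. Obox4-ps28 had 5.02, 213.9 and 8.99. Obox6, with an average under the level limit here, had 2.37, 11.5 and 0.606, and Obox3 was listed at 0, at 5.90 and at 0. Obox1, Obox2 and Obox5 reached 0.669 to 1.05 with dTAG-13, near the scale of single reads. Recovery shares both comparison groups with the dTAG-13 comparison. Feeder fibroblast markers also moved in this experiment: 4 of 6 above the limit were at least 2-fold lower in Recovery than with DMSO, and their summed level was 7597 with DMSO, 9764 with dTAG-13 and 4121 in Recovery. Their part in the Obox values was not tested.

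In sorted cells the family separated GFP-positive from GFP-negative cells in both treatments. With DMSO the -ps sum was 92.0 in mESC and 16786 in 2CLC, a 182-fold difference. With dTAG-13 it was 1147 and 27864, a 24.3-fold difference. All 34 members above the limit were at least 2-fold higher in 2CLC with DMSO (17.3% of all genes) and with dTAG-13 (15.2%), 4 of them coding genes. Many of the 34, though not the array copies or Obox6, passed the limit only through the 2CLC groups, so these counts are in large part set by it. The median log2 difference of the 34 was 6.10 with DMSO and 4.52 with dTAG-13. Obox4-ps28 had 9.49 normalized counts in mESC and 1861 in 2CLC with DMSO, and 129 and 3073 with dTAG-13. It was the highest copy in these groups other than mESC with DMSO, where Obox4-ps27 had 10.8.

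The coding genes were mostly read in 2CLCs. Obox2 had 10.4 normalized counts in 2CLC with DMSO and 31.9 with dTAG-13, and Obox1 had 7.68 and 16.9, while both were listed at 0 in mESC with either treatment. Obox8 (chromosome 7, 14331436 to 14333557) was also listed at 0 in mESC and had 1.17 and 9.88 in 2CLC. Obox7 (chromosome 7, 14659496 to 14665996) was read only in 2CLC with dTAG-13, at 1.43, which is a few reads. Obox3 (chromosome 7, 15479825 to 15639902) had 0.309 in mESC and 33.9 in 2CLC with DMSO, and 1.42 and 115.9 with dTAG-13. Obox5 (chromosome 7, 15750131 to 15759800) had 5.53 in 2CLC with DMSO and 6.43 with dTAG-13, and 0 and 0.521 in mESC. Obox6 differed from these in its level in GFP-negative cells, at 6.49 with DMSO and 21.1 with dTAG-13, against 76.8 and 95.8 in 2CLC. Its mESC mean was thus 8.45% of its 2CLC mean with DMSO and 22% with dTAG-13. For the -ps sum these shares were 0.548% and 4.12%, close to those of Zscan4d (0.519% and 4.09%).

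Within GFP-negative cells, the -ps sum was 12.5-fold higher with dTAG-13, and 24 of 34 members were at least 2-fold higher (8.24% of all genes). They were 23 of 30 -ps entries and, of the 4 coding genes above the limit, Obox6 alone. The 15 array copies had ratios of 9.77 to 24.7. MERVL-int was 11.4-fold higher and Zscan4d 13.8-fold. Cells are called negative here by the reporter gate, and the part that GFP-positive cells left in that gate could have in these values was not tested.

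Within 2CLCs the ratio of dTAG-13 to DMSO was lower for the array copies than for Obox1, Obox2, Obox3 and the Obox3-ps entries of the cluster. The -ps sum was 1.66-fold higher with dTAG-13, and none of the 15 array copies reached a ratio of 2, with a range of 1.52 to 1.79 and a median of 1.65. The 9 of 34 members that were at least 2-fold higher (5.42% of all genes) were Obox1, Obox2 and Obox3 and the entries Obox3-ps1 to Obox3-ps6. With an average of at least 20 normalized counts required, 2 of the 9 were left, Obox3 and Obox3-ps5. Obox3-ps5 (chromosome 7, 15293949 to 15295548), the highest of the Obox3-ps entries in 2CLC with either treatment, had 26.3 normalized counts with DMSO and 163 with dTAG-13, a ratio of 6.18. Obox3-ps4 had 7.20 and 36.3, Obox3-ps2 had 3.68 and 17.4, and Obox3-ps6 had 9.77 and 30.1. The 7 Obox3-ps entries of the cluster together had 66.5 with DMSO and 290 with dTAG-13, with ratios of 2.09 to 6.18 and the lowest-level member, Obox3-ps7, at 0.274 and 1.11. Obox3-ps8, on another chromosome and below the level limit, did not go with them, at 8.11 with DMSO and 9.60 with dTAG-13. The ratio was 3.42 for Obox3, 3.06 for Obox2, 2.2 for Obox1, 8.43 for Obox8, 1.16 for Obox5 and 1.25 for Obox6. Obox5 and Obox8 were below the level limit, and their ratios rest on few reads. Obox3 and Obox5, whose promoters share both blocks printed above, thus had different ratios, which carry no error and were not tested. Obox3-ps6 lies within the span of Obox3 on the same strand, with no exon in common. The Obox3-ps entries of the cluster were set apart as a group after their values had been seen. They have 16.6% to 78.9% of windows in no other member (100% in Obox3-ps7), so reads may be shared among them and with Obox3. No test could be made on group means. For comparison, the ratio in 2CLC was 1.98 for MERVL-int, 1.75 for Zscan4d and 1.18 for Zscan4c, and of 26 genes of the 2-cell programme listed with earlier results known, 15 were at least 2-fold higher. Feeder fibroblast markers differed between the same groups, with a summed level of 3913 with DMSO and 6479 with dTAG-13 and 3 of 5 above the limit at least 2-fold higher. Their part in the Obox ratios was not tested.

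**Figure D2:**
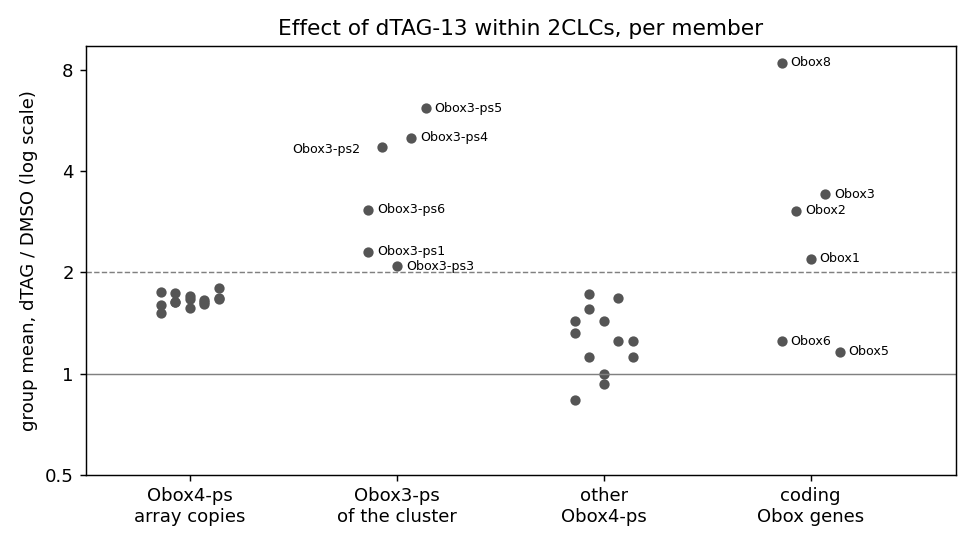
Ratio of the authors' group means in 2CLC, dTAG-13 over DMSO, on a log axis, for members of the chromosome 7 cluster whose 2 means sum to at least 10 normalized counts. Each point is 1 member; the dashed line is a ratio of 2, which none of the 15 array copies reached and which Obox1, Obox2, Obox3, Obox8 and 6 Obox3-ps entries passed.

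The relative level of the shorter Obox4-ps copies differed between the experiments. The 7 copies with a single exon block and over 95% identity to Obox4-ps27 (-ps6, -ps8, -ps11, -ps26, -ps30, -ps36 and -ps38) align only from base 415 to 417 of Obox4-ps27 onward, with 714 to 948 bases. Relative to the median array copy of the same group, they had 6.72% to 78.7% with dTAG-13 at 24 h, with a median of 20.4%. In 2CLC with dTAG-13 they had 0.348% to 17.2%, with a median of 0.654%, and at 15 d of dTAG-13 the median was 4.82%. Obox4-ps36 had 38.7% of the median array copy at 24 h, 40.9% at 7 d, 19.5% at 15 d, 3.41% in mESC with dTAG-13 and 1.92% in 2CLC with dTAG-13. Obox4-ps30 had a mean of 11.7 at 24 h with dTAG-13 and of 6.17 in 2CLC with dTAG-13, although the -ps sum was 27864 in the latter. By the study's methods the sorted libraries had longer reads and another library kit than the time course and washout libraries, and they were normalized apart. By the same methods the 24 h and 15 d libraries shared kit and read length, yet the share of the short copies was lower at 15 d. The median array copy with dTAG-13 had 51.6 normalized counts at 24 h and 136.9 at 15 d. The parts of read length, kit and array level in these differences were not tested. Levels of single short copies from the unsorted experiments therefore cannot be carried over to the sorted cells.

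**Figure D3:**
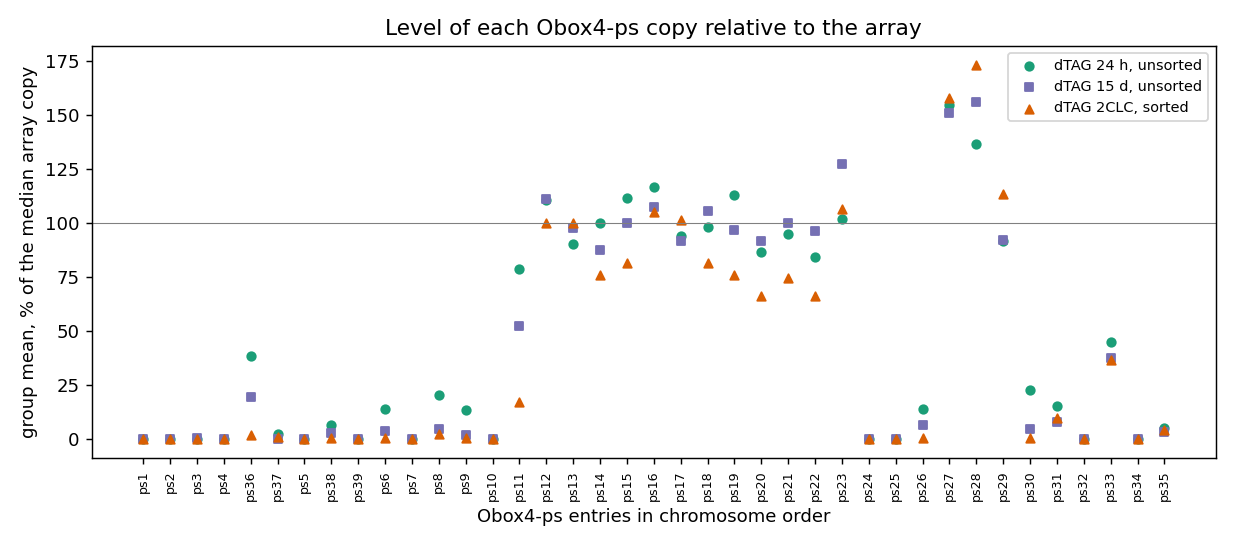
Group mean of each of the 39 Obox4-ps entries as a percentage of the median of the 15 array copies in the same group, in chromosome order, for dTAG-13 at 24 h, dTAG-13 at 15 d and dTAG-13 2CLC. The array copies lie around 100%, Obox4-ps27 and Obox4-ps28 above it, and the short copies such as ps36, ps8 and ps30 lie lower in the sorted 2CLC than at 24 h.

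Genes related to the family or active in the same state gave a frame for these values. All 26 genes of the 2-cell programme were at least 2-fold higher with dTAG-13 at 24 h, 7 d and 15 d and in 2CLC over mESC in both treatments, and all 26 were at least 2-fold lower in Recovery than with dTAG-13. Of the 13 PRD-class relatives outside the family, 8 were above the limit in the time course, and 1 was at least 2-fold higher with dTAG-13 at 24 h and 1 at 7 d. At both times this was Duxf3, which is also among the 26 genes of the 2-cell programme. At 15 d of dTAG-13, 4 of 8 were at least 2-fold higher, and in sorted mESC 5 of 10. In 2CLC over mESC with DMSO, 7 of the 10 relatives above the limit were at least 2-fold higher, and 6 with dTAG-13. Between dTAG-13 and DMSO in 2CLC none was. Crx, the neighbour from which the family derives, had 0.626 normalized counts with DMSO and 0.352 with dTAG-13 at 24 h, and 6.73 and 2.19 in 2CLC. Duxf3, which encodes the 2-cell activator DUX, had 511.5 and 269.9 in 2CLC with DMSO and dTAG-13.

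The Dppa4 experiment gave values for single libraries, of 8399885 to 12710949 gene reads each. Dppa4 had 829.8 normalized counts ± 115 (SD, n = 3) in WT with DMSO and 758 ± 27.1 (SD, n = 3) in WT with UNC0638, and 0 in all 6 knockout (KO) libraries. Ehmt2 had 526 ± 94.6 (SD, n = 3) and 397 ± 70.4 (SD, n = 3) in WT. A read was found for 32 of the 55 members, and 16, the 15 array copies and Obox6, passed the limit of a mean of 1 normalized count over the 12 libraries. Tests are limma on log2 of the normalized count plus 1, and a gene was called at a Benjamini-Hochberg adjusted p under 0.05 over 22377 genes and a log2 difference of at least 1.

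The -ps sum was 16.3, 14.8 and 117 normalized counts in the WT DMSO libraries 1 to 3. With UNC0638 it was 81.0, 85.0 and 403 in the WT libraries. In the KO it was 0, 2.04 and 0 with DMSO and 0, 7.53 and 0 with UNC0638. WT replicate 3 was the highest library of its group under both treatments, and the WT groups overlapped, since its DMSO value lay above 2 of the UNC0638 values. Within each replicate number the UNC0638 value was above the DMSO value, but the numbers were not taken as pairs. No KO library reached the lowest WT value. The ratio of the group means was 3.84 for UNC0638 over DMSO in WT, 12.2 without the DMSO library of replicate 3 and 1.68 without its UNC0638 library.

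The same WT libraries were high in other 2-cell transcripts. Zscan4d had 18.6, 62.7 and 209.8 normalized counts in the WT DMSO libraries and 122, 170 and 1172 with UNC0638, and was 0 in the 6 KO libraries. MERVL-int had 2199, 4355 and 12607 in WT with DMSO and 14593, 12274 and 53609 with UNC0638. In the KO it had 867 ± 195 (SD, n = 3) with DMSO and 1032 ± 516 (SD, n = 3) with UNC0638.

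For UNC0638 against DMSO in WT, limma called 0 of the 16 members (0.00% of all genes were called), although all 16 had a log2 difference above 0, with a median of 1.68 and a range of 0.74 to 3.31. At an unadjusted p under 0.05 the count was 8 of 16 members and 8.66% of all genes. All of the 16 but Obox6 are array copies that share randomly placed reads. They are not independent of each other, so such counts of members are no support. edgeR and DESeq2 on the recovered reads also called 0 members. Obox4-ps27 had 3.49, 3.69 and 10.5 normalized counts with DMSO and 8.80, 14.9 and 47.1 with UNC0638, a log2 difference of 1.65 (SE 0.76, adjusted p = 0.57 by limma). In the KO, limma called 0 members for UNC0638 against DMSO (0.353% of all genes were called), 0 had an unadjusted p under 0.05 (13.6% of all genes), and edgeR and DESeq2 called 0. The difference of the UNC0638 effect between KO and WT was called for 0 of 16 members by limma, with 0 at an unadjusted p under 0.05 (6.07% of all genes), and for 0 genes in all (0.00%), and by edgeR and DESeq2 also for 0 members. A difference in the response to UNC0638 between WT and KO was thus not detected.

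Between KO and WT with UNC0638, 5 array copies were called lower in the KO by limma, of 16 tested (2.38% of all genes were called lower). A member that passes the level limit through the WT libraries alone has to differ, so this count is no support on its own. Obox4-ps27 had 8.80, 14.9 and 47.1 in WT and 0 reads in the 3 KO libraries, and was at least 24.7-fold higher in WT, with the KO group taken as 3 reads (limma log2 difference -4.29, SE 0.76, adjusted p = 0.0042). Obox4-ps17 (chromosome 7, 15195981 to 15197694) had 7.92, 7.47 and 23.2 in WT and 0 in the KO, at least 13.4-fold higher in WT (adjusted p = 0.0099 by limma). Obox4-ps12 had 6.16, 7.47 and 24.0 in WT and 0 in the KO (at least 13.1-fold, adjusted p = 0.028 by limma). Obox4-ps19 (chromosome 7, 15218640 to 15220356) had 4.4, 3.74 and 19.2 in WT and 0 in the KO (at least 9.52-fold, adjusted p = 0.040 by limma). Obox4-ps28 had 7.92, 5.61 and 43.1 in WT, and 1 read in 1 KO library gave it 0, 1.08 and 0 (adjusted p = 0.034 by limma). For each of the 5, every WT library lay above every KO library. The same held for array copies that were not called, such as Obox4-ps16 (5.28, 2.80 and 37.5 in WT, 0 in the KO). It did not hold for Obox4-ps22, with 0.880 in a WT library and 3.23 in a KO library. This separation therefore adds no support to the calls.

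Only Obox4-ps27 stayed called whichever of the 12 libraries was left out, with adjusted p between 0.0046 and 0.039 by limma. Obox4-ps17 lost its call only without WT UNC0638 replicate 3 (adjusted p = 0.068 by limma). Obox4-ps12, Obox4-ps28 and Obox4-ps19 lost theirs in 5, 6 and 8 of the 12 fits, always among them those without WT UNC0638 replicate 2 or 3 or without any one of the KO UNC0638 libraries. edgeR called 3 members lower (1.94% of all genes), Obox4-ps17, Obox4-ps27 and Obox4-ps28. DESeq2 called 5 (3.28%), the same 3 with Obox4-ps12 and Obox4-ps16. Since reads are placed at random among the array copies, the choice of copy within these calls cannot be read as a difference between copies.

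With DMSO, KO against WT gave 0 called members by limma (2.53% of all genes were called lower), with 4 of 16 at an unadjusted p under 0.05, against 21.0% of all genes. Of the 4, Obox4-ps20, Obox4-ps21 and Obox4-ps27 were lower in the KO and Obox6 was higher (log2 difference 1.85). edgeR called 0 (2.28% of all genes were called lower) and DESeq2 called 1 lower (3.83%). Obox4-ps27 came nearest, with 3.49, 3.69 and 10.5 in WT and 0 reads in the KO, at least 5.60-fold higher in WT (adjusted p = 0.053 by limma).

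Obox6 behaved apart from the array in this experiment too. It had 0 reads in the 3 WT DMSO libraries and 6.16, 8.41 and 13.6 normalized counts with UNC0638 in WT. The 2 groups did not overlap and the mean with UNC0638 was at least 8.61-fold higher, with WT DMSO taken as 3 reads, but the difference was not called (log2 difference 3.31, SE 0.84, adjusted p = 0.52 by limma). In the KO it had 5.87, 0 and 5.80 with DMSO and 17.5, 3.23 and 6.98 with UNC0638, and the KO and WT groups overlapped with UNC0638 (log2 difference -0.22, SE 0.84, adjusted p = 0.92 by limma). Thus Obox6 was read in 5 of 6 KO libraries, 3 to 19 reads each, while the 48 -ps entries together were read in 2 of 6, with 2 and 7 reads.

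The other coding genes were near the limit of detection. Obox3 had 3 reads in WT DMSO replicate 3 and 3 and 2 reads in WT UNC0638 replicates 1 and 2, Obox2 had 1 and 2 reads in the 2 libraries of WT replicate 3, and Obox5 had 2 reads in WT DMSO replicate 3. None of the 3 had a read in the KO. Obox1, Obox7 and Obox8 had no read in any of the 12 libraries. Of the 2-cell programme, 23 of 26 genes were tested, and 22 were called lower in the KO than in WT with UNC0638 by limma and 12 with DMSO.

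**Figure D4:**
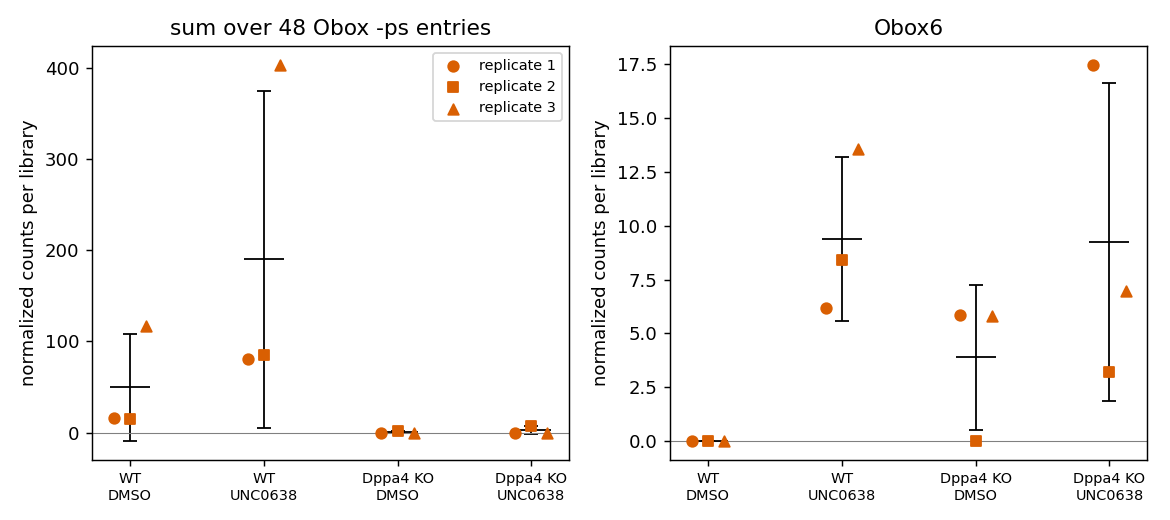
Normalized counts per library in the Dppa4 experiment, for the sum of the 48 Obox -ps entries on the left and for Obox6 on the right. Points are libraries, with a marker for each replicate number, and bars are the mean and SD of 3 libraries; the -ps sum lies between 14.8 and 403 in WT and between 0 and 7.53 in the KO, whereas Obox6 reaches 17.5 in a KO library.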

How the data were processed

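The members and gene lists were chosen with earlier results of these data known. The authors trimmed reads (Trim Galore 0.6.7), aligned them to mm10 without introns (STAR 2.7.10), placed reads with several best positions at random, counted them over GENCODE genes with TEcounts at default settings, and divided by DESeq2 1.34.0 size factors (R 4.1.0), with versions as in the submitters' processing notes. The deposited signal values are these normalized counts, given as group means for 3 experiments and per library for the Dppa4 experiment. The deposited tables of the authors' own comparisons (fold changes, their errors and p-values) were not used. No reads were aligned here. In the Dppa4 experiment whole reads were recovered for 100% of values (tolerance 0.001). limma 3.58.1 (trend, 4 groups of 3 clones, R 4.3.3) was the chosen test, tested on simulated data, and edgeR 4.0.16 and DESeq2 1.42.0 on recovered reads were alternatives. Named genes were all coding members, -ps members called in the Dppa4 experiment, the 3 highest and 3 lowest -ps members above the level limit at 7 d of dTAG-13, and those off chromosome 7. Others named were chosen after their values were seen. Bounds use 3 reads over a group and cover counting error only. The number of unmapped columns was 0. Sequences come from GENCODE transcripts of GRCm38 and from RefSeq.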

Additional observations from a re-analysis of the deposited data

How the results depend on the processing

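The alternatives to counts from group means varied only the numbers of higher members. The 18 members lower in Recovery than with dTAG-13 and the 1 lower at 7 d with DMSO were not varied. Of 70 alternatives to the 10 counts of higher members, several of which were 0, 63 stayed within 1.5 times. The exceptions were 34 members higher at 15 d without a level limit, 1 member higher in Recovery than DMSO with a pseudocount of 0.5 or relative to the median gene (0 as reported), 22 higher in 2CLC than mESC in either treatment with an average of at least 20, and 2 higher with dTAG-13 in 2CLC with that limit or with a 4-fold limit. Of 55 alternatives to the family sums, single libraries left out included, 35 stayed within 5% of the reported ratio and 20 did not. Scaled to the summed gene values of each group, the -ps and coding sums had ratios of 0.0512 and 0.0635 for Recovery over dTAG-13, 164 and 17.9 for 2CLC over mESC with DMSO, 18.4 and 9.13 with dTAG-13, and 1.40 and 1.73 for dTAG-13 in 2CLC. In the Dppa4 experiment the -ps ratio of UNC0638 over DMSO in WT was 3.84, 4.21 when scaled to the summed gene values, and 1.68 to 12.2 with 1 library left out. The -ps ratio of KO over WT with UNC0638 was 0.0132, and 0.0103 to 0.0302 with 1 library left out, a choice made after seeing the data, as were these omissions for WT. Without KO UNC0638 replicate 2 no KO read was left for a ratio.

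Between KO and WT with UNC0638, 5 members were called as reported, 3 by edgeR, and 1 to 8 with 1 library left out. With DMSO, 0 were called as reported, 1 by DESeq2, 1 with a pseudocount of 0.5, and 0 to 1 with 1 library left out. The other 3 contrasts gave 0 under every alternative run, and under the edgeR expression filter no member was left to test. With the replicate number as a block, the counts were 8 and 1 for KO against WT with UNC0638 and with DMSO and 0 for the other contrasts. WT and KO libraries of the same number come from different clones, so this block is no pairing across genotypes. Deviations of same-numbered libraries correlated at 0.16, 0.07 and 0.29 in WT and 0.11, -0.04 and 0.01 in the KO, so the numbers were not taken as pairs. The causes were not tested. No paired analysis was possible because only group means were used for the time course, washout and sorted experiments. Depth limits the Dppa4 experiment: a member with 1 read in a library has about 1 normalized count.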
